A study of Macaca fascicularis with 56 samples.

Results

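The proteasome genes described here were the genes of the whole-blood arrays whose symbol is PSM followed by a letter from A to G and a number. They were read through probe sets that carry that symbol alone, 1 probe set a gene, the brightest on average over all 56 arrays. The rule found 42 genes, and 41 of them were among the 16020 genes tested. They comprised 13 subunits of the core particle, 14 subunits of the regulatory cap, 4 genes of the immunoproteasome, 7 assembly factors, 2 further activators and 1 inhibitor. PSMA8, an alpha subunit known from testis, lay above the array median on 2 of 56 arrays and was not tested. PSME2 and PSMA6 were read only by probe sets that name a second gene, so no value is given for them, and 4 of the 5 immunoproteasome genes named by the rule remained. PSMB11, PSMC5, PSMD7 and PSMD13 were not analysed here.

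The proteasome is the protease that degrades proteins tagged with ubiquitin. Its core particle is a stack of rings built from alpha subunits, which gate the entry, and beta subunits, of which PSMB5, PSMB6 and PSMB7 carry the catalytic sites. The regulatory cap binds the core, holds a ring of ATPases (PSMC genes) that unfold the substrate, and a set of non-ATPase subunits (PSMD genes) that bind ubiquitin and remove it. In cells exposed to interferon, PSMB8, PSMB9 and PSMB10 can take the places of PSMB5, PSMB6 and PSMB7 in newly built particles, and PSME1 and PSME2 form an activator that docks on the core. That form, the immunoproteasome, is abundant in leukocytes and is known for cutting peptides for presentation on MHC class I.

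The blood came from 14 cynomolgus macaques (Macaca fascicularis), collected in PAXgene tubes at 0, 2, 4 and 8 h, with 1 array for each animal and hour. Per the series title, the animals were followed after an endotoxin challenge and a treatment. Animals Y31301 to Y31304 made up the vehicle arm (n = 4). Animals Y31305 to Y31308 received the peptide control, the LR12 residues in scrambled order (n = 4). Animals Y31309 to Y31314 received LR12 (n = 6). LR12 is a peptide taken from TREM-like transcript 1 that binds ligands of TREM-1, an amplifying receptor of neutrophils and monocytes. Whether vehicle animals were given endotoxin, the doses, and the step of the protocol at which hour 0 was sampled are not stated in the labels used here. The age and sex of the animals are not given in the sources used here.

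Levels are log2 of the deposited intensity, and a change is a difference of log2 levels. A gene was called changed at an adjusted p under 0.05 from limma, a linear model fitted to all genes with p values adjusted over all of them (Benjamini-Hochberg). The probes were designed on human sequence, so levels are compared between groups for a gene and never between genes. The arrays had been scaled to a common mean, yet the median change of all genes in LR12 animals was -0.18 at 2 h, -0.29 at 4 h and -0.27 at 8 h. Changes relative to all genes have this median subtracted. In LR12 animals the summed intensity of 7 T cell markers had a median of 6970 at 0 h and 1290 at 4 h, that of 5 B cell markers 2800 and 648, and that of 6 neutrophil markers 20800 and 37900. In the same order, these medians were 4820 and 1800, 2760 and 1570, and 25700 and 31300 in the peptide control. With vehicle they were 6800 and 3920, 2730 and 2660, and 25300 and 23700. In whole blood, fewer cells of a type and less RNA per cell cannot be told apart, and the part of the cell mixture in the results below was not tested. Probe sets for RNA controls added during labelling split the arrays into 24 with a high and 32 with a low signal. The labels do not name this split, and it is called the high-control and low-control arrays here.

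Under LR12 the proteasome genes moved in both directions, as did all genes. At 2 h, 4 of the 41 rose and 8 fell, which is 29.3% of them against 32% of all genes called in that comparison. The shares that rose (9.76%) and fell (19.5%) were near those of all genes (10.1% and 21.9%). At 4 h, 11 rose and 7 fell, 43.9% against 36.8% of all genes. At 8 h, 2 rose and 6 fell, 19.5% against 29.1% of all genes (8.65% rose and 20.4% fell). By direction, the 11 rises at 4 h were 26.8% of the members, where 10.8% of all genes rose, and the 7 falls were 17.1%, where 26% of all genes fell. The 41 genes had a median change of 0.00 at 2 h, then 0.18 at 4 h and -0.06 at 8 h.

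The balance of rises and falls depended on the scaling. With each array centred on its median, 4 rose and 4 fell at 2 h (9.76% each way), where 10.4% of all genes rose and 18.7% fell. At 4 h 16 rose and 4 fell (39% and 9.76%), where 15.4% of all genes rose and 16.8% fell, and at 8 h 5 rose and 0 fell (12.2% rose), where 13.7% rose and 9.83% fell. With quantile normalization, 7 rose and 7 fell at 4 h (17.1% each way), where 13.4% of all genes rose and 20.4% fell, so that the members' shares lay near those of all genes. At 8 h 1 rose and 9 fell (2.44% and 22%), where 10.5% of all genes rose and 15.1% fell. Counting any newly called gene, the calls at 8 h numbered 4 without Y31309, Y31311 or Y31312 and 5 without Y31310, Y31313 or Y31314. On the low-control arrays alone there were 4, counted in the same way.

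In the peptide control arm 1 gene rose at 2 h (PSME4), where 3.3% of all genes were called (2.2% rose and 1.1% fell). At 4 h 1 rose (PSMC6), where 4.84% of all genes were called (1.9% rose), and 0 were called by limma at 8 h (against 0.73%), where 4 had an unadjusted p under 0.05. With the animal as a block, these counts were 2, 7 and 1, where 7.63%, 15.3% and 4.29% of all genes were called. The calls added by the block were rises of PSMD12 at 2 and 4 h and of PSMD2 at 8 h, and falls of PSMA7, PSMB10, PSME1, PSMF1 and PSMG3 at 4 h. Their values stand with each gene. With quantile normalization 1 rose and 1 fell at 4 h. Leaving out Y31305 gave 5 calls at 4 h, leaving out Y31306, Y31307 or Y31308 gave 0, and the call at 2 h was lost without any of those last 3 animals. In the vehicle arm limma called 0 of the 41 at 2 h, 4 h and 8 h, against 0%, 0.0125% and 0.0375% of all genes, and 3, 6 and 3 genes had an unadjusted p under 0.05.

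**Figure D1:**
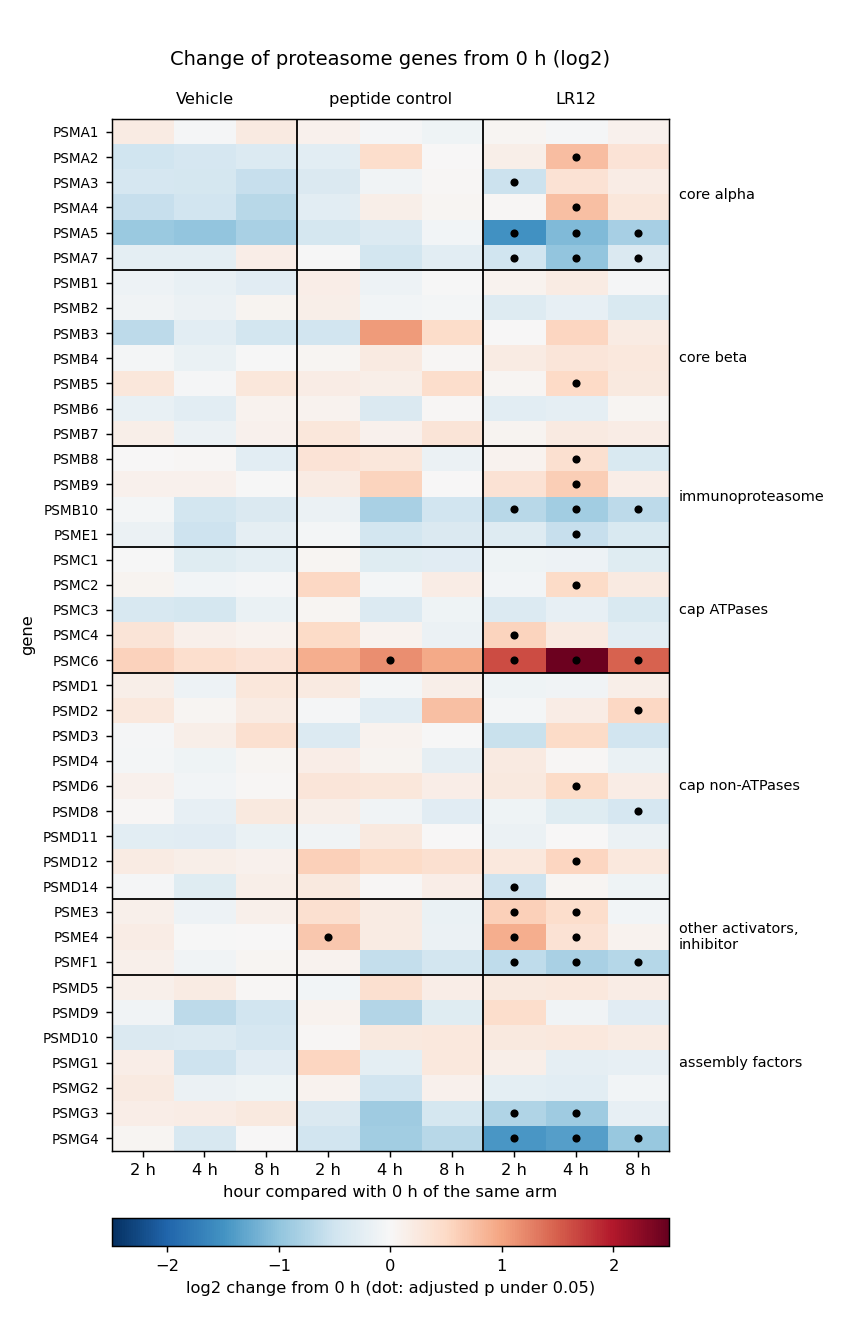
Change of the 41 proteasome genes from 0 h to 2, 4 and 8 h in each arm, as log2 change from the linear model, with a dot where the limma adjusted p was under 0.05. The dots lie almost only in the LR12 columns, where PSMC6 reached 2.46 at 4 h and PSMA5 and PSMG4 fell by more than any other member. LR12 had 6 animals and each control arm 4. Of all genes, 36.8% were called at 4 h in LR12, 4.84% in the peptide control and 0.0125% with vehicle. At each hour 0 of the 41 changes differed by limma between LR12 and the peptide control.

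The alpha subunits of the core split under LR12. PSMA2 and PSMA4 rose at 4 h, PSMA3 fell at 2 h, and PSMA5 and PSMA7 fell at all 3 later hours. PSMA1 was not called at any hour, with changes of 0.05, -0.03 and 0.11.

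PSMA5 had the largest fall of any member. In LR12 animals its level ran from 8.87 over a median of 9.14 to 9.66 at 0 h. The lowest, median and highest were 6.86, 7.64 and 8.49 at 2 h, then 6.94, 8.24 and 8.66 at 4 h and 7.80, 8.22 and 8.93 at 8 h. Each of the 6 was lower than at 0 h at every later hour, and the groups at 2 and 4 h lay wholly below that at 0 h. The change was -1.52 ± 0.26 (SE, n = 6) at 2 h, 2.87-fold lower, with a limma adjusted p of 1.12e-05. At 4 h it was -1.11 (adjusted p = 0.000675), and at 8 h it was -0.83 (adjusted p = 0.0133; 0.171 with arrays centred on the median).

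The vehicle animals also had lower PSMA5 levels after 0 h, without a call. Their levels were 9.81, 9.82, 8.72 and 9.20 at 0 h and 8.43, 8.42, 8.38 and 8.61 at 2 h. All 4 were lower at 2 h and the groups did not overlap, but the change of -0.93 had a limma adjusted p of 0.55. The changes at 4 and 8 h were -0.98 and -0.82. In the peptide control the levels were 8.96, 9.15, 9.07 and 8.63 at 0 h and 8.78, 8.78, 8.25 and 8.29 at 2 h, a change of -0.43 that was not called. At 2 h the LR12 group was 0.84 below vehicle (adjusted p = 0.0436), with overlapping levels. That difference was not called with quantile normalization (-0.66, adjusted p = 0.0973), nor without any of the 10 animals but Y31303, Y31309 and Y31311 (adjusted p from 0.0597 to 0.136).

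PSMA7 had lowest, median and highest levels of 11.37, 11.77 and 11.91 at 0 h under LR12 and 10.74, 11.22 and 11.51 at 2 h, then 10.23, 10.66 and 11.16 at 4 h and 11.04, 11.34 and 11.70 at 8 h. The group at 4 h lay wholly below that at 0 h. The change at 4 h was -0.98 ± 0.14 (SE), 1.97-fold lower, with a limma adjusted p of 5.29e-07. For a second probe set of the gene the change at 4 h was -0.81. The change was -0.50 at 2 h (adjusted p = 0.00478) and -0.37 at 8 h (adjusted p = 0.0426), and the call at 8 h was lost with arrays centred on the median (-0.09, adjusted p = 0.751) and without any LR12 animal but Y31314 (adjusted p from 0.0564 to 0.171). PSMA7 was also lower in all 4 peptide control animals at 4 h, by 0.45 on average, and was not called (adjusted p = 0.105; called with the animal as a block, 0.0371).

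PSMA4 rose at 4 h. Its lowest, median and highest levels under LR12 were 9.66, 9.80 and 10.28 at 0 h and 9.45, 9.90 and 10.41 at 2 h, then 10.31, 10.71 and 10.87 at 4 h and 9.85, 10.10 and 10.81 at 8 h. Every LR12 animal was higher at 4 h and the groups did not overlap. The change was 0.75 ± 0.17 (SE), 1.68-fold, with a limma adjusted p of 0.00051.

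In the vehicle arm 3 of 4 animals had less PSMA4 at 4 h than at 0 h. The levels were 10.63, 10.47, 10.28 and 10.47 at 0 h and 10.04, 9.63, 10.34 and 9.93 at 4 h, a change of -0.48 that was not called. LR12 animals had started lower, by 0.58 against vehicle, a difference that was not called after adjustment (adjusted p = 0.816). Those of the peptide control were 10.87, 10.26, 10.42 and 9.98 at 0 h and 10.18, 10.69, 10.80 and 10.40 at 4 h, a change of 0.14 that was not called either.

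PSMA2 had lowest, median and highest levels under LR12 of 10.33, 10.76 and 11.02 at 0 h and 11.11, 11.43 and 12.01 at 4 h. Each of the 6 was higher and the groups did not overlap. Mean levels at 0 h were 10.73 under LR12, 11.21 in the peptide control and 11.17 with vehicle. At 4 h they were 11.50, 11.65 and 10.74 in that order, and neither control change was called. The LR12 rise of 0.77 ± 0.29 (SE), 1.71-fold, had a limma adjusted p of 0.029, and a second probe set rose by 0.89. The call was lost with quantile normalization (0.62, adjusted p = 0.077) and without Y31310, Y31311, Y31312 or Y31314, where the adjusted p ran from 0.0706 to 0.0883. PSMA2 was also 0.81 higher on high-control arrays, of which LR12 had 1 of 6 at 0 h and 2 of 6 at 4 h. With the control level as a covariate the call held. PSMA3 fell by 0.53 at 2 h (adjusted p = 0.00511) in all 6 animals, but the change of the mean of its 3 probe sets was 0.01, and with arrays centred on the median the fall was not called (-0.48, adjusted p = 0.0562). Its change of 0.36 at 4 h was called only with the animal as a block (adjusted p = 0.0332).

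Of the beta subunits, which form the inner rings, only PSMB5 was called against 0 h among the 7 tested, and only at 4 h. For PSMB1, PSMB2, PSMB3 and PSMB4, which carry no catalytic site, the differences from 0 h at 4 h under LR12 were 0.20, -0.21, 0.53 and 0.31. With the animal as a block, PSMB4 was called at 4 h (adjusted p = 0.0219) and PSMB2 at 8 h (-0.38, adjusted p = 0.0376). PSMB3 had the largest error of all members (SE 0.44) and the largest difference between high-control and low-control arrays, 1.06.

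PSMB5, the subunit of the chymotrypsin-like site, had lowest, median and highest levels under LR12 of 8.53, 8.73 and 9.46 at 0 h and 8.75, 8.87 and 8.93 at 2 h, then 9.01, 9.27 and 9.68 at 4 h and 8.62, 9.11 and 9.38 at 8 h. At 4 h 5 of 6 animals were higher, and the level of Y31309 at 0 h stood apart at the top of its group. The rise at 4 h was 0.50 ± 0.15 (SE), 1.41-fold, with a limma adjusted p of 0.00764. In the vehicle arm the levels were 8.85, 8.99, 8.41 and 8.30 at 0 h and 8.64, 8.63, 8.72 and 8.49 at 4 h, a change of -0.02. The peptide control had 8.40, 8.70, 9.06 and 8.69 at 0 h and 8.57, 9.10, 8.77 and 8.95 at 4 h, a change of 0.14. Neither change was called.

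The other catalytic subunits were not called in any arm. For PSMB6, of the caspase-like site, the differences from 0 h were -0.27, -0.23 and 0.05 at 2, 4 and 8 h under LR12, 0.09, -0.37 and 0.03 in the peptide control and -0.18, -0.26 and 0.09 with vehicle. For PSMB7, of the trypsin-like site, they were 0.07, 0.23 and 0.19 under LR12, 0.28, 0.11 and 0.33 in the peptide control and 0.14, -0.14 and 0.10 with vehicle. Their standard errors lay between 0.14 and 0.20.

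The 4 immunoproteasome genes did not move together. At 4 h under LR12, PSMB8 and PSMB9 rose while PSMB10 and PSME1 fell, so all 4 were called and their median change was -0.09. At 2 h and at 8 h only PSMB10 was called, and it fell. Fitted with the animal as a block, PSME1 was also called at 2 h (-0.33, adjusted p = 0.0378) and 8 h (-0.39, adjusted p = 0.0139), and PSMB8 at 8 h. In the same order, the differences at 4 h in the peptide control were 0.29, 0.55, -0.82 and -0.46, without a call. With the animal as a block the falls of PSMB10 (adjusted p = 0.0222) and PSME1 (adjusted p = 0.0393) were called there. With vehicle they were 0.02, 0.11, -0.46 and -0.52, also without a call.

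PSMB8, which replaces PSMB5, had lowest, median and highest levels under LR12 of 12.11, 12.46 and 12.59 at 0 h and 12.13, 12.53 and 12.86 at 2 h, then 12.59, 12.91 and 13.05 at 4 h and 11.67, 11.95 and 12.66 at 8 h. All 6 animals were higher at 4 h, and 5 of 6 were lower at 8 h than at 0 h. The rise at 4 h was 0.41 ± 0.16 (SE), 1.33-fold, with a limma adjusted p of 0.0402. It was not called with quantile normalization (0.32, adjusted p = 0.117) or without Y31309, Y31312, Y31313 or Y31314 (adjusted p from 0.0647 to 0.156). The change at 8 h was -0.39 (adjusted p = 0.0582; 0.0231 with the animal as a block).

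The vehicle levels of PSMB8 were 11.99, 12.31, 12.07 and 12.55 at 0 h and 12.06, 12.39, 12.30 and 12.24 at 4 h. Those of the peptide control were 12.18, 12.27, 12.31 and 11.73 at 0 h and 12.48, 12.50, 12.62 and 12.03 at 4 h. All 4 peptide control animals were higher at 4 h, by 0.29 on average, within overlapping ranges. At 4 h every LR12 animal lay above every vehicle animal, by 0.59 on average (adjusted p = 0.0233). That call was lost with arrays centred on the median (0.56, adjusted p = 0.0862) and without Y31301 or Y31304 (adjusted p of 0.114 and 0.077).

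PSMB9, which replaces PSMB6, had lowest, median and highest levels under LR12 of 10.95, 11.20 and 11.71 at 0 h and 11.18, 11.70 and 12.17 at 2 h, then 11.44, 11.93 and 12.29 at 4 h and 10.90, 11.48 and 12.02 at 8 h. Every animal was higher at 2 h and at 4 h, with overlapping ranges. The rise at 4 h was 0.62 ± 0.22 (SE), 1.54-fold, with a limma adjusted p of 0.025. It was not called with quantile normalization (0.45, adjusted p = 0.111) or without Y31309, Y31311 or Y31313 (adjusted p from 0.0502 to 0.0745).

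The peptide control levels of PSMB9 were 11.92, 10.77, 11.51 and 10.91 at 0 h and 12.26, 11.53, 12.23 and 11.29 at 4 h. All 4 animals were higher, by 0.55 on average (SE 0.28), which was not called (adjusted p = 0.215). The vehicle levels were 11.14, 11.21, 11.86 and 11.70 at 0 h and 11.32, 11.33, 12.24 and 11.47 at 4 h, a change of 0.11. The change to 4 h in LR12 did not differ by test from that in either control arm for PSMB8, PSMB9, PSMB10 or PSME1.

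PSMB10, which replaces PSMB7, had lowest, median and highest levels under LR12 of 11.05, 11.21 and 11.36 at 0 h and 9.94, 10.53 and 10.95 at 2 h, then 9.80, 10.50 and 10.78 at 4 h and 9.69, 10.60 and 11.42 at 8 h. The groups at 2 and 4 h lay wholly below that at 0 h. The change was -0.70 ± 0.26 (SE) at 2 h (limma adjusted p = 0.0321), -0.86 at 4 h (1.82-fold lower, adjusted p = 0.0063) and -0.65 at 8 h (adjusted p = 0.0496). With arrays centred on the median none of the 3 was called (adjusted p of 0.0803, 0.0981 and 0.361). The call at 2 h was lost without Y31309, Y31311, Y31313 or Y31314 (adjusted p from 0.0559 to 0.0924), and at 8 h without any LR12 animal but Y31313 (adjusted p from 0.0812 to 0.183).

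The vehicle levels of PSMB10 were 10.96, 10.72, 10.99 and 10.84 at 0 h and 10.80, 10.88, 9.59 and 10.38 at 4 h. The peptide control levels were 11.06, 10.77, 11.04 and 10.78 at 0 h and 10.89, 9.94, 9.70 and 9.82 at 4 h. All 4 peptide control animals were lower at 4 h (called only with the animal as a block), and Y31305 was the highest of its arm at every later hour. PSMB10 was 0.59 lower on high-control arrays (adjusted p = 8.95e-05), of which LR12 had 1, 1, 2 and 3 of 6 at 0, 2, 4 and 8 h and the peptide control 4 of 4 at 4 h. With the control level as a covariate the falls at 2 and 4 h were called and that at 8 h was not (-0.46, adjusted p = 0.106).

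PSME1, a subunit of the activator that docks on the core, had lowest, median and highest levels under LR12 of 12.10, 12.21 and 12.45 at 0 h and 11.52, 11.78 and 12.73 at 2 h, then 11.52, 11.62 and 11.77 at 4 h and 11.56, 11.75 and 12.41 at 8 h. The group at 4 h lay wholly below that at 0 h. The fall at 4 h was -0.58 ± 0.16 (SE), with a limma adjusted p of 0.00224, and -0.32 (adjusted p = 0.171) with arrays centred on the median. The vehicle levels were 11.75, 11.81, 12.14 and 11.99 at 0 h and 11.67, 11.37, 11.26 and 11.32 at 4 h. The peptide control levels were 12.19, 11.84, 12.10 and 11.67 at 0 h and 12, 11.26, 11.69 and 11.02 at 4 h. Every animal of both control arms was lower at 4 h than at 0 h, by 0.52 and 0.46 on average, and neither change was called without the animal as a block.

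**Figure D2:**
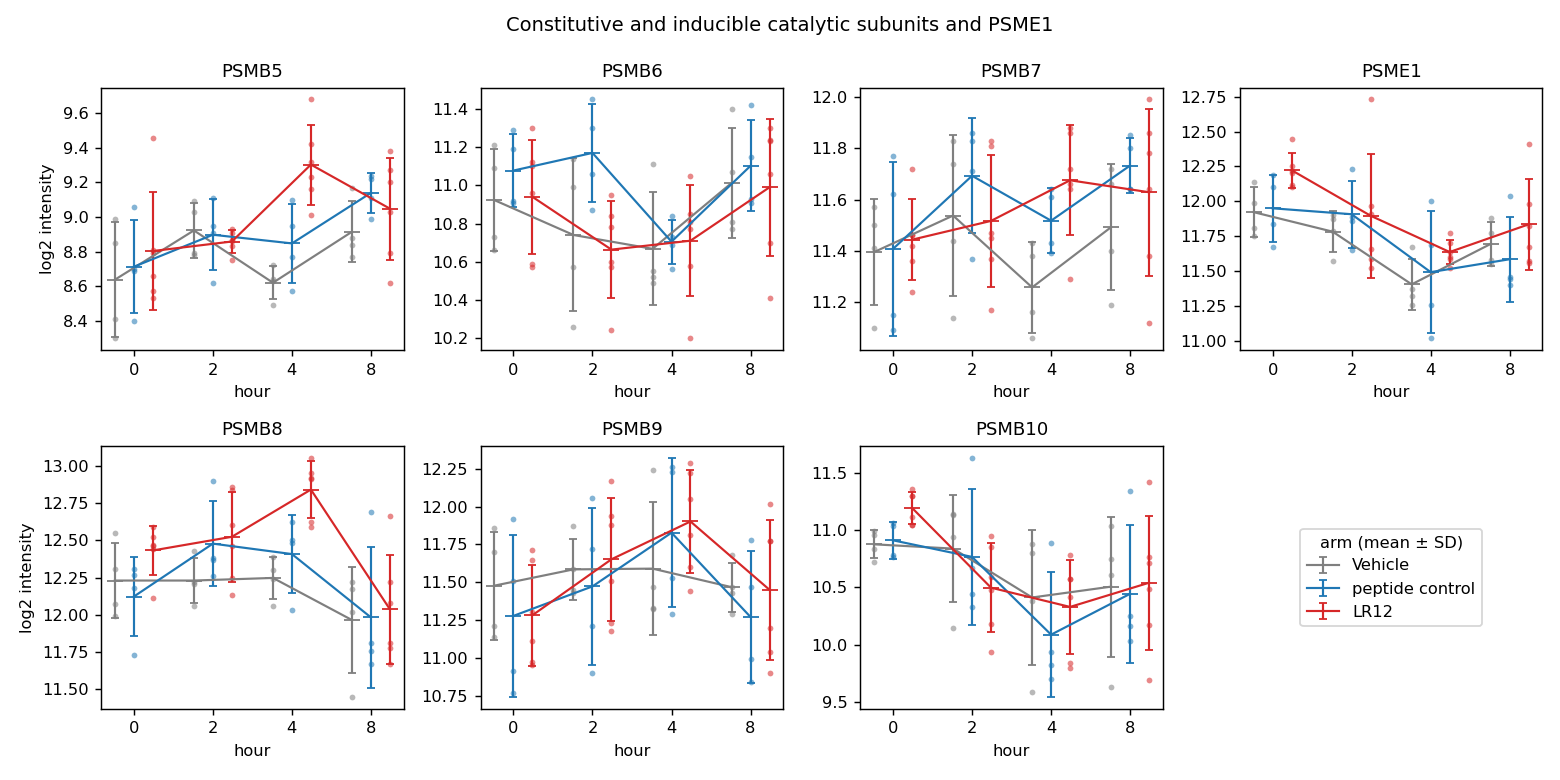
Log2 intensity of the constitutive catalytic subunits (PSMB5, PSMB6, PSMB7), of the subunits that replace them (PSMB8, PSMB9, PSMB10) and of PSME1 by hour, with a point for each animal and the mean ± SD of each arm (4, 4 and 6 animals). PSMB8 and PSMB9 peaked at 4 h under LR12, at means of 12.84 and 11.90, while PSMB10 and PSME1 were lower at 4 h than at 0 h in all 3 arms.

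Among the ATPases of the cap, PSMC6 was called at every later hour and PSMC2 and PSMC4 at 1 hour each, while PSMC1 and PSMC3 were not called. PSMC6 made the largest change of any member. Under LR12 its lowest, median and highest levels were 8.15, 8.99 and 9.36 at 0 h and 10.38, 10.54 and 10.84 at 2 h, then 11.04, 11.48 and 11.66 at 4 h and 9.85, 10.47 and 10.92 at 8 h. All 6 animals were higher at every later hour and none of the later groups overlapped that at 0 h. The change was 1.63 ± 0.29 (SE) at 2 h (3.10-fold, limma adjusted p = 1.5e-05), 2.46 at 4 h (5.51-fold, adjusted p = 9.2e-09) and 1.48 at 8 h (2.79-fold, adjusted p = 0.00012). The gene had 1 probe set, and its level differed by 0.11 between high-control and low-control arrays, which was not called.

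The peptide control animals also had more PSMC6. Their levels were 9.71, 8.64, 9.81 and 9.54 at 0 h and 9.97, 10.69, 9.97 and 10.69 at 2 h, then 10.05, 10.66, 10.46 and 11.19 at 4 h and 9.78, 10.53, 10.76 and 10.41 at 8 h. All 4 were higher at each later hour, and at 2 and 4 h the groups did not overlap with 0 h. The rise at 4 h was 1.17 ± 0.35 (SE, n = 4), with a limma adjusted p of 0.0429. It was not called without Y31306, Y31307 or Y31308, with adjusted p of 0.328, 0.167 and 0.196. The changes of 0.90 at 2 h and 0.95 at 8 h were not called.

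In the vehicle arm PSMC6 levels were 10.32, 9.64, 8.79 and 9.07 at 0 h and 9.29, 9.45, 11.17 and 9.57 at 4 h. Y31303 and Y31304 were higher at 4 h and the other two lower, a change of 0.42 that was not called. The level of Y31303 stood far above the other vehicle animals at 4 h. The change to 4 h was larger in LR12 than in vehicle by 2.05 ± 0.45 (SE, limma adjusted p = 0.0286), and larger than in the peptide control by 1.30 (adjusted p = 0.606). LR12 animals had started lower in PSMC6, by 0.51 against vehicle and 0.48 against the peptide control, differences that were not called.

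PSMC4 rose at 2 h by 0.55 ± 0.15 (SE, limma adjusted p = 0.0026) in all 6 LR12 animals, with no overlap. The differences at that hour were 0.47 in the peptide control and 0.32 with vehicle, without a call. PSMC2 rose at 4 h by 0.47 (adjusted p = 0.0288) in all 6 animals. It was not called as the mean of its 3 probe sets (0.18, adjusted p = 0.474) or with quantile normalization (0.31, adjusted p = 0.171). It was also not called without Y31309, Y31310, Y31313 or Y31314 (adjusted p from 0.0599 to 0.0896).

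Of the 9 non-ATPase subunits of the cap, PSMD6 and PSMD12 rose at 4 h, PSMD2 rose and PSMD8 fell at 8 h, and PSMD14 fell at 2 h. PSMD6 and PSMD12 belong to the lid of the cap. PSMD6 rose by 0.48 ± 0.12 (SE, limma adjusted p = 0.00107) in all 6 LR12 animals, and the highest level at 0 h and the lowest at 4 h were both 12.09. As the mean of its probe sets PSMD6 was not called (0.51, adjusted p = 0.0757). Peptide control levels of PSMD6 were 11.78, 11.51, 11.86 and 11.70 at 0 h and 11.94, 12.05, 11.96 and 12.05 at 4 h. All 4 animals were higher with no overlap, and the change was not called. Vehicle levels were 11.70, 11.90, 11.87 and 11.78 at 0 h and 11.60, 11.65, 12.20 and 11.53 at 4 h. PSMD12 rose by 0.53 ± 0.17 (SE, adjusted p = 0.00929) in all 6. PSMD12 was also higher in all 4 peptide control animals at 2 h, by 0.60, with no overlap and an adjusted p of 0.0942. That rise was called with the animal as a block (adjusted p = 0.0226), as was one of 0.48 at 4 h (adjusted p = 0.0485).

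PSMD14, the subunit that cuts ubiquitin chains off the substrate, fell by 0.51 at 2 h (adjusted p = 0.024), and the call was lost with arrays centred on the median (-0.45, adjusted p = 0.136). It was also lost without Y31309, Y31311, Y31312 or Y31313 (adjusted p from 0.0566 to 0.0957). PSMD2, a large scaffold of the cap, had lowest, median and highest levels under LR12 of 9.52, 9.66 and 9.97 at 0 h and 9.60, 10.13 and 10.88 at 8 h. It was higher in 5 of 6 animals, with overlapping ranges, by 0.52 ± 0.21 (SE, adjusted p = 0.0492). PSMD2 was also higher in all 4 peptide control animals at 8 h, by 0.76, and not called (adjusted p = 0.128; called with the animal as a block, 0.0376). PSMD2 was 0.57 lower on high-control arrays, and its call at 8 h under LR12 was lost without Y31310, Y31312, Y31313 or Y31314 (adjusted p from 0.064 to 0.214).

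PSMD8, a lid subunit, fell by 0.42 at 8 h (adjusted p = 0.0429), and its call was lost with arrays centred on the median (-0.15, adjusted p = 0.642). It was also lost without any LR12 animal but Y31312 (adjusted p from 0.0634 to 0.137). PSMD1, PSMD3, PSMD4 and PSMD11 were not called at any hour against 0 h. PSMD3, a lid subunit, was called with the animal as a block under LR12 at 2 h (-0.56, adjusted p = 0.0201), 4 h (0.47, adjusted p = 0.047) and 8 h (-0.48, adjusted p = 0.0479).

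The activators that compete with the cap and the inhibitor moved apart. PSME3, a nuclear activator, rose at 2 and 4 h, and PSME4, a large activator that caps the core by itself, rose at 2 and 4 h. PSMF1, an inhibitor in test-tube assays, fell at all 3 later hours.

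PSME4 had lowest, median and highest levels under LR12 of 11.62, 11.83 and 12.08 at 0 h and 12.41, 12.65 and 13.31 at 2 h, then 11.94, 12.23 and 12.37 at 4 h and 11.68, 11.87 and 12.24 at 8 h. All 6 animals were higher at 2 h with no overlap, and by 8 h the ranges overlapped again. The rise was 0.90 ± 0.13 (SE) at 2 h, 1.86-fold, with a limma adjusted p of 4.34e-07. Its other probe sets rose by 1.05 and 0.89. At 4 h the change was 0.37 (adjusted p = 0.0187), which was not called with quantile normalization (0.19, adjusted p = 0.175) or without Y31309 (0.30, adjusted p = 0.0889).

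The peptide control levels of PSME4 were 11.70, 11.77, 11.64 and 11.76 at 0 h and 11.86, 12.62, 12.57 and 12.54 at 2 h. All 4 animals were higher with no overlap, and Y31305 rose least. The rise of 0.68 ± 0.16 (SE, n = 4) had a limma adjusted p of 0.00801, and it was not called without Y31306, Y31307 or Y31308 (adjusted p of 0.153, 0.118 and 0.121) or as the mean of its probe sets (0.57, adjusted p = 0.0587). In the vehicle arm the levels were 11.73, 11.71, 11.92 and 11.91 at 0 h and 11.76, 12.09, 12.35 and 11.82 at 2 h, a change of 0.19 that was not called. The rise to 2 h was larger in LR12 than in vehicle by 0.71 ± 0.20 (SE, adjusted p = 0.049).

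PSME3 had lowest, median and highest levels under LR12 of 9.31, 9.59 and 9.66 at 0 h and 9.85, 10.02 and 10.63 at 2 h, then 9.86, 9.99 and 10.08 at 4 h and 9.13, 9.51 and 9.64 at 8 h. The groups at 2 and 4 h lay wholly above that at 0 h. The rise was 0.59 ± 0.16 (SE) at 2 h (limma adjusted p = 0.00405) and 0.44 at 4 h (adjusted p = 0.0305). At 4 h it was not called without Y31309, Y31311, Y31312, Y31313 or Y31314 (adjusted p from 0.0605 to 0.0769). Of its 4 probe sets, 1 had a change of -0.40 at 2 h, and the mean of all 4 was not called at 2 h (0.30) or 4 h (0.13). In the peptide control the differences of PSME3 from 0 h were 0.40 at 2 h and 0.20 at 4 h. With vehicle they were 0.12 and -0.13, and none of these was called.

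PSMF1 had lowest, median and highest levels under LR12 of 8.55, 9.01 and 9.21 at 0 h and 8.03, 8.36 and 8.56 at 2 h, then 7.74, 8.13 and 8.57 at 4 h and 8.01, 8.08 and 8.73 at 8 h. All 6 animals were lower at each later hour, with ranges that overlapped through Y31314, the lowest at 0 h. The change was -0.63 at 2 h (limma adjusted p = 0.00791), -0.82 ± 0.19 (SE) at 4 h (1.77-fold lower, adjusted p = 0.000468) and -0.72 at 8 h (adjusted p = 0.00328). The mean of its 4 probe sets was not called (-0.26, -0.32 and -0.28). With arrays centred on the median, the call at 8 h was lost (-0.44, adjusted p = 0.136). The differences were 0.09, -0.60 and -0.46 in the peptide control and 0.12, -0.09 and 0.04 with vehicle, all uncalled except that of the peptide control at 4 h with the animal as a block (adjusted p = 0.0407).

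Of the 7 assembly factors, PSMG3 and PSMG4 fell and the other 5 were not called at any hour. PSMG1 to PSMG4 are chaperones that help to arrange the alpha ring, and PSMD5, PSMD9 and PSMD10 are chaperones of the base of the cap. PSMG4 had lowest, median and highest levels under LR12 of 8.25, 8.85 and 9.03 at 0 h and 5.97, 7.33 and 8.23 at 2 h, then 6.56, 7.46 and 7.81 at 4 h and 7.01, 7.95 and 8.36 at 8 h. All 6 animals were lower at each later hour, and the groups at 2 and 4 h lay wholly below that at 0 h. The change was -1.46 ± 0.34 (SE) at 2 h (2.75-fold lower, limma adjusted p = 0.000607), -1.37 at 4 h (adjusted p = 0.00101) and -0.95 at 8 h (adjusted p = 0.0286).

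The call of PSMG4 at 8 h was lost with arrays centred on the median (-0.67, adjusted p = 0.191), with the control level as a covariate (-0.77, adjusted p = 0.0613) and without Y31309, Y31311, Y31312 or Y31313 (adjusted p from 0.0535 to 0.142). Its 3 other probe sets, all dimmer, had changes of -1.59, 1.45 and -1.27 at 4 h, and the mean of the 4 was called neither at 2 h (-0.57, adjusted p = 0.154) nor at 4 h (-0.69, adjusted p = 0.0652). The vehicle levels were 9.21, 9.66, 7.52 and 7.97 at 0 h and 8.62, 9.01, 8.16 and 8.72 at 2 h, with Y31301 and Y31302 lower and Y31303 and Y31304 higher. The peptide control levels were 8.95, 9.30, 9.66 and 9.43 at 0 h and 9.02, 9.03, 8.46 and 8.92 at 2 h, a change of -0.48 that was not called. PSMG4 was 0.54 lower on high-control arrays (adjusted p = 0.0129).

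PSMG3 had lowest, median and highest levels under LR12 of 6.99, 7.31 and 8.10 at 0 h and 6.20, 6.50 and 7.44 at 2 h, then 5.88, 6.36 and 7.30 at 4 h. Every animal was lower at both hours, with overlapping ranges. The change was -0.75 ± 0.27 (SE) at 2 h (limma adjusted p = 0.0255) and -0.89 at 4 h (adjusted p = 0.00636). Neither was called with arrays centred on the median (adjusted p of 0.0745 and 0.104) or with quantile normalization (-0.49 and -0.58). The call at 2 h was also lost without Y31311, Y31312, Y31313 or Y31314 (adjusted p from 0.0504 to 0.0909). PSMG3 was also lower in all 4 peptide control animals at 4 h, by 0.88, with no overlap and an adjusted p of 0.0903 (0.0171 with the animal as a block).

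**Figure D3:**
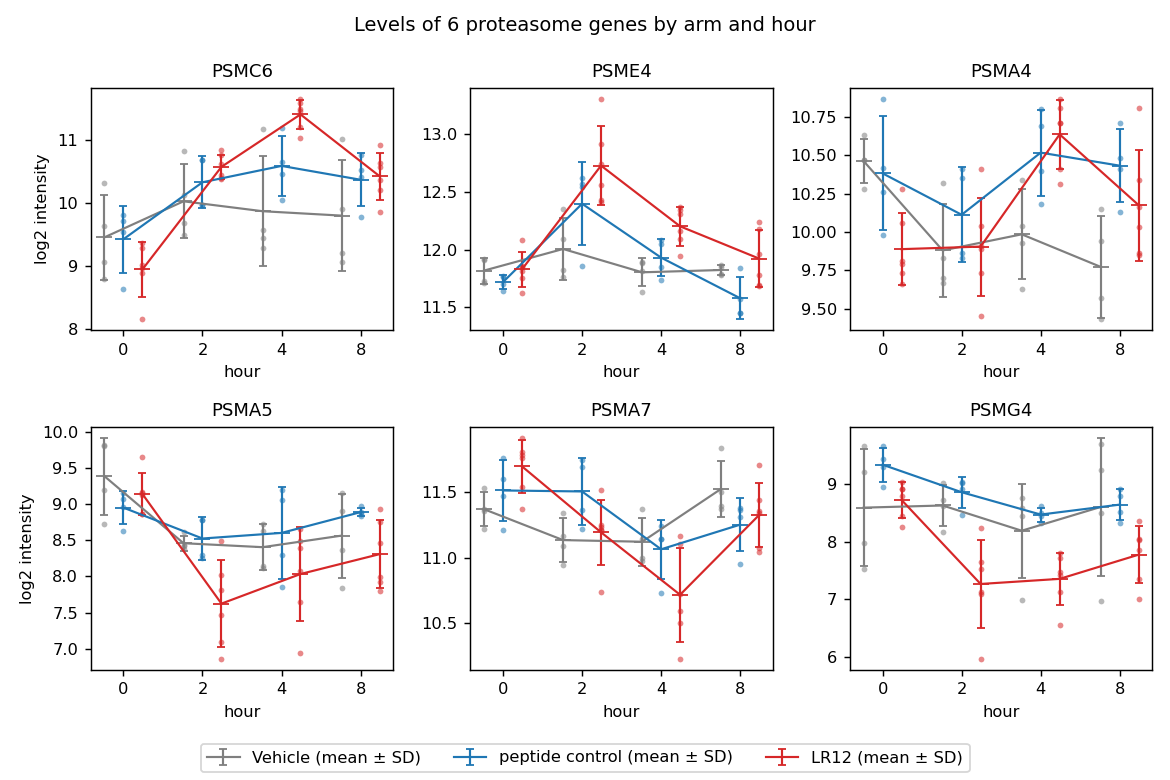
Log2 intensity of PSMC6, PSME4, PSMA4, PSMA5, PSMA7 and PSMG4 by hour, with a point for each animal and the mean ± SD of each arm (4, 4 and 6 animals). Under LR12, PSMC6 peaked at 4 h (mean 11.41) and PSME4 at 2 h (mean 12.73), while PSMA5 and PSMG4 were lowest at 2 h (means 7.62 and 7.27).

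The groups are set side by side here for LR12. Of the 13 core subunits, 0 rose and 3 fell at 2 h, 3 rose and 2 fell at 4 h, and 0 rose and 2 fell at 8 h. Of the 14 cap subunits, 2 rose and 1 fell at 2 h, 4 rose and 0 fell at 4 h, and 2 rose and 1 fell at 8 h. Of the 4 immunoproteasome genes, 0 rose and 1 fell at 2 h, 2 rose and 2 fell at 4 h, and 0 rose and 1 fell at 8 h. For comparison, the share of all genes that rose was 10.1% (2 h), 10.8% (4 h) and 8.65% (8 h), and the share that fell was 21.9%, 26% and 20.4%. The 3 falls of 13 core subunits at 2 h are near that share. These counts were not tested against each other.

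The median change of the core at 4 h under LR12 was 0.23, which is 0.52 above the median of all genes. That of the cap was 0.11, or 0.40 above all genes, and that of the immunoproteasome -0.09, or 0.20 above. That of the assembly factors was -0.22, or 0.07 above. Computed in each animal, the core stood 0.52 ± 0.20 (SD, n = 6) and the cap 0.47 ± 0.16 above all genes at 4 h, in all 6 LR12 animals for both. The immunoproteasome stood 0.20 ± 0.18 above all genes, in 5 of 6, and the assembly factors 0.07 ± 0.17, in 3 of 6.

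These distances from all genes shrank or changed sign with quantile normalization, which left 0.11 for the core, 0.12 for the cap and -0.17 for the immunoproteasome at 4 h. The immunoproteasome median relative to all genes was 0.06, 0.20 and -0.12 at 2, 4 and 8 h as deposited and -0.29, -0.17 and -0.50 with quantile normalization. In the peptide control the core stood 0.30 ± 0.24 (SD, n = 4) above all genes at 4 h, in all 4 animals, and in the vehicle arm it stood at -0.07 ± 0.34, above in 1 of 4.

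**Figure D4:**
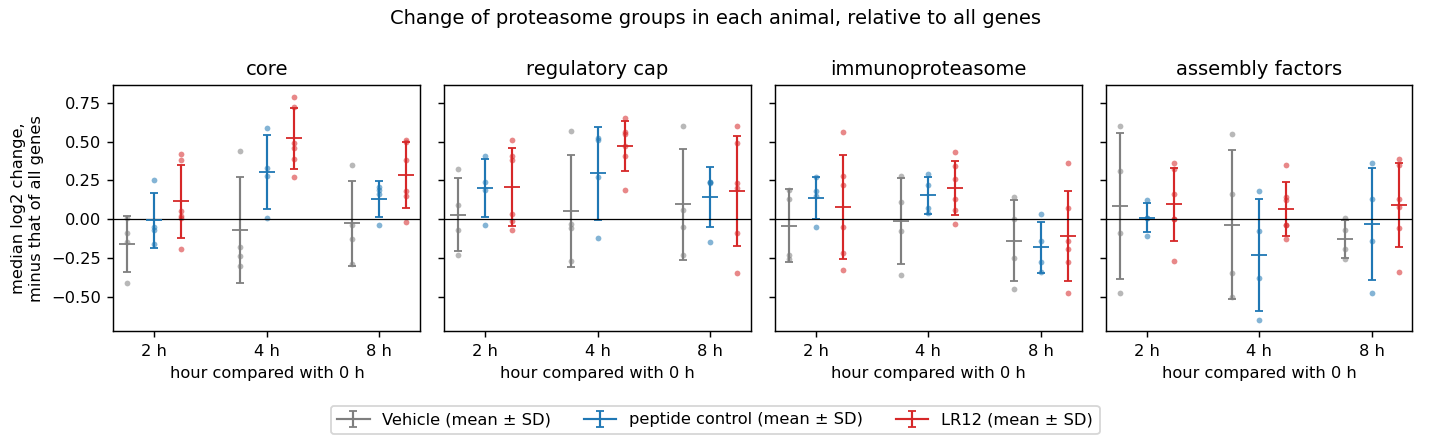
Median log2 change of the core, regulatory cap, immunoproteasome and assembly genes from 0 h in each animal, minus the median change of all genes in that animal, with the mean ± SD of each arm. At 4 h all 6 LR12 animals lie above 0 for the core (0.27 to 0.79) and the cap (0.19 to 0.65).

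Compared at the same hour, the arms differed in few proteasome genes. The comparisons with a given control arm share its animals, and the changes from 0 h share the arrays at 0 h. At 0 h limma called 0 of the 41 between LR12 and the peptide control (0% of all genes, 2 with an unadjusted p under 0.05). It called 0 between LR12 and vehicle (0.0187% of all genes, 4 unadjusted) and 0 between the peptide control and vehicle (0% of all genes, 0 unadjusted).

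Against the peptide control, PSMG4 was 1.59 lower under LR12 at 2 h (limma adjusted p = 0.0144) and PSMD14 0.75 lower (adjusted p = 0.0338), where 2.95% of all genes were called and 2.71% were lower. In both genes every LR12 animal lay below every peptide control animal at 2 h. For PSMG4 a difference of -0.61 was present at 0 h, and the change to 2 h differed by -0.98. Neither value was called. PSMG4 was not called as the mean of its probe sets (-0.66, adjusted p = 0.313), nor PSMD14 with arrays centred on the median (-0.72, adjusted p = 0.145). At 4 h PSMC2 was 0.74 higher under LR12 with no overlap (adjusted p = 0.0359, 1.35% of all genes called, 0.375% higher and 0.98% lower), and at 8 h 0 of the 41 were called (0.0187% of all genes, 3 unadjusted). The 2 calls at 2 h became 0 without Y31305, Y31306 or Y31312, and 1 without Y31307, Y31308, Y31310, Y31311, Y31313 or Y31314. With the animal as a block PSMA5 was also lower at 2 h (-0.90, adjusted p = 0.0498). The call of PSMC2 was lost with arrays centred on the median, with quantile normalization, with the control level as a covariate, and without any animal of both arms but Y31310 or Y31311. On the mean of its probe sets PSMC2 differed by 0.38 (adjusted p = 0.381).

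Against vehicle, 4 of the 41 were higher and 2 lower under LR12 at 2 h, where 15.9% of all genes were called (4.61% higher and 11.3% lower). PSME3 (0.75, limma adjusted p = 0.00379) and PSME4 (0.72, adjusted p = 0.000458) were higher in every LR12 animal than in any vehicle animal. At 0 h PSME3 was already 0.27 higher, which was not called. PSMD4, a ubiquitin receptor of the cap, was 0.49 higher with no overlap (adjusted p = 0.00831), but not with quantile normalization (0.25, adjusted p = 0.144). PSMC4 was 0.58 higher (adjusted p = 0.0116), and without Y31301 or Y31304 it was not called (adjusted p of 0.073 and 0.0629). It was already 0.34 higher at 0 h, a difference that was not called. PSMA5 and PSMG4 were lower, PSMG4 by 1.36 (adjusted p = 0.0094), while the mean of its probe sets differed by -0.01. With arrays centred on the median, 4 were higher and 1 lower.

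At 4 h 8 of the 41 were higher under LR12 than with vehicle and 0 lower, where 11.9% of all genes were called, 4.36% higher and 7.56% lower. They were PSMA3, PSMA4, PSMB4, PSMB5, PSMB8, PSMC6, PSMD6 and PSME3. The largest difference was that of PSMC6 (1.54, limma adjusted p = 0.00156), with overlap through Y31303, and then that of PSME3 (0.85, adjusted p = 0.0022), with none. PSMB5 was 0.69 higher with no overlap (adjusted p = 0.00649; 0.0521 with arrays centred on the median). PSMG3 was called in addition with the animal as a block (-0.82, adjusted p = 0.0314). With quantile normalization 8 were higher and 1 lower, and with arrays centred on the median 3 were higher. The count rested on single vehicle animals. It was 18 without Y31303, 4 without Y31301 or Y31304, and 5 without Y31302. At 8 h limma called 0 (2.72% of all genes, 0.93% higher; 5 unadjusted), and it called 4 without Y31303 and 1 without Y31309.

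Between the peptide control and vehicle limma called 0 of the 41 at 2, 4 and 8 h, where 0%, 0.00624% and 0% of all genes were called and 6, 8 and 4 members had an unadjusted p under 0.05. Without Y31305 there were 2 calls at 2 h and 2 at 4 h, and without Y31303 there were 5 at 4 h.

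The change from 0 h was also compared between arms. Between LR12 and the peptide control, 0 of the 41 changes differed at 2, 4 or 8 h by limma, where 0% of all genes were called at each hour and 5, 3 and 0 members had an unadjusted p under 0.05. Between LR12 and vehicle, PSME4 differed at 2 h (2.17% of all genes called) and PSMA4 (1.23, adjusted p = 0.0299) and PSMC6 at 4 h (0.218% of all genes called). At 8 h 0 differed (0% of all genes, 7 unadjusted). With the animal as a block the counts were 2, 7 and 1, where 10.5%, 7.02% and 1.74% of all genes were called. The block added PSMG4 at 2 h (-1.49), PSMA2 (1.19), PSMA3 (0.80), PSMA7 (-0.73), PSMD6 (0.55) and PSMG3 (-1.07) at 4 h, and PSMA4 (0.98) at 8 h, with adjusted p from 0.0164 to 0.0415. None of the 3 calls held with arrays centred on the median, where the differences were 0.79, 1.25 and 2.07. The call at 2 h was lost without any of the 10 animals but Y31303 and Y31309. Both calls at 4 h were lost without Y31301, Y31302, Y31304, Y31310, Y31311, Y31312 or Y31314, and 1 was lost without Y31313. Without Y31303 there were 2, 6 and 3 calls at 2, 4 and 8 h. Between the peptide control and vehicle 0 changes differed at any hour (0% of all genes; 1, 2 and 2 unadjusted).

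The level of many proteasome genes differed between high-control and low-control arrays. With arm and hour in the model, 21 of the 41 (51.2%) were called, 7 higher and 14 lower on high-control arrays, against 28.8% of all genes. PSMB3 (1.06), PSMA2 (0.81), PSMD10 (0.73) and PSMD5 (0.57) were higher, and PSMD1 (-0.70), PSMB10 (-0.59), PSMD2 (-0.57) and PSMG4 (-0.54) were lower. PSMC6, PSME3, PSME4, PSMB9, PSMA5 and PSMA7 were not called. High-control arrays numbered 1, 1, 2 and 3 of 6 in LR12, 3, 1, 4 and 3 of 4 in the peptide control, and 2, 0, 2 and 2 of 4 in vehicle at 0, 2, 4 and 8 h. On the low-control arrays alone, LR12 had 4 rises and 8 falls at 2 h and 11 rises and 7 falls at 4 h.

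**Figure D5:**
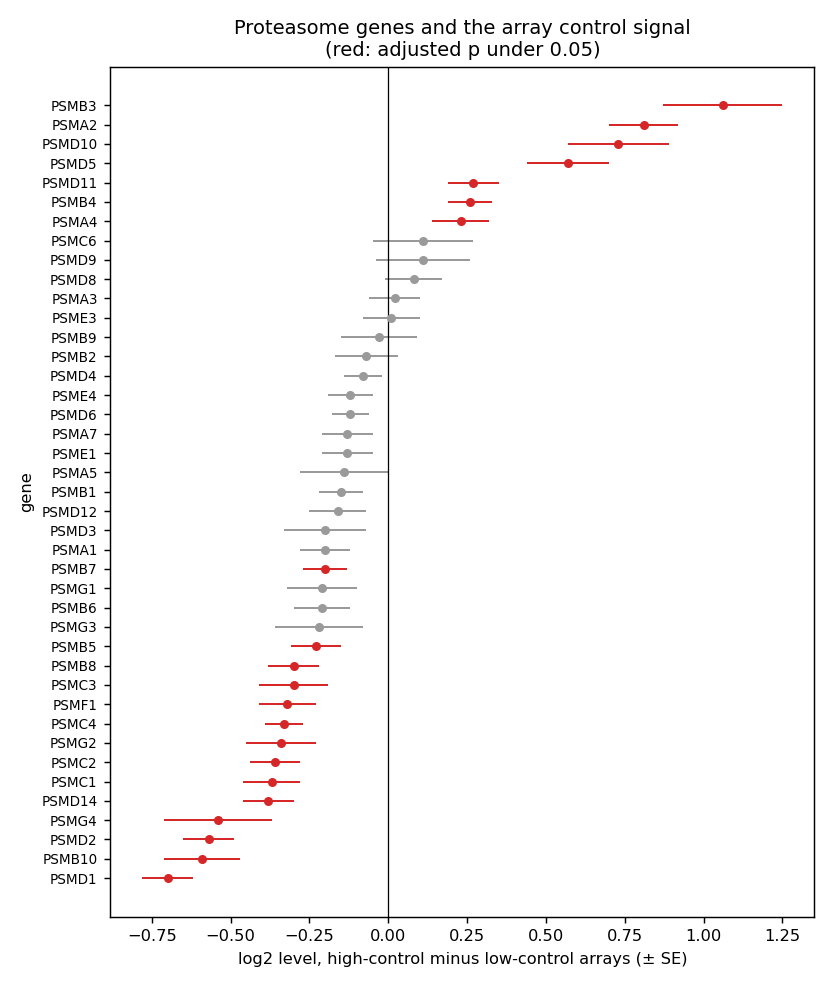
Difference in log2 level of each of the 41 proteasome genes between high-control and low-control arrays, with arm and hour in the model, as estimate ± SE, in red where the limma adjusted p was under 0.05. The estimates run from -0.70 for PSMD1 to 1.06 for PSMB3.

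Genes that work with the proteasome were read from 5 further lists. Their counts stand against the share of all genes called under LR12, which was 32% at 2 h (10.1% rose and 21.9% fell), 36.8% at 4 h (10.8% and 26%) and 29.1% at 8 h (8.65% and 20.4%). Of 11 tested partners of the particle under LR12, 1 rose and 2 fell at 2 h, 1 rose and 4 fell at 4 h, and 1 rose and 2 fell at 8 h, all near the share of all genes called. POMP, the maturation factor of the core, rose by 0.90, 0.77 and 0.50 at 2, 4 and 8 h (limma adjusted p = 0.000218, 0.00112 and 0.0436). USP14, a ubiquitin-cutting enzyme bound to the cap, fell by 1.16, 1.26 and 0.70 on the log2 scale. ADRM1, a ubiquitin receptor of the cap, fell by 0.83 at 4 h and 0.91 at 8 h. The median change of the list at 4 h was -0.22, against -0.29 for all genes.

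Of 4 tested regulators of proteasome genes, 1 rose and 2 fell at 2 h under LR12, and 1 fell at 4 h and at 8 h, both later counts below the share of all genes called. NFE2L1, a transcription factor of proteasome subunit genes, changed by -1.56 at 2 h (limma adjusted p = 1.64e-07), -1.13 at 4 h and -1.09 at 8 h, lower in all 6 animals each time. NGLY1, the enzyme that removes sugar chains from that factor, fell by 0.92 at 2 h. NFE2L2, a factor of the oxidative stress response, rose by 1.77 ± 0.30 (SE) at 2 h (adjusted p = 6.21e-06) in all 6 animals. With the peptide control NFE2L1 changed by -1.13 (adjusted p = 0.00745) and NFE2L2 by 1.25 (adjusted p = 0.0397) at 2 h.

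Of 11 tested genes of ubiquitin activation and substrate delivery, 1 rose and 3 fell at 2 h under LR12, 3 rose and 3 fell at 4 h, and 4 rose and 3 fell at 8 h. The falls at 2 and 4 h are near the share of all genes that fell. UBA6, an enzyme that activates ubiquitin, rose by 1.25, 1.86 and 1.43 at 2, 4 and 8 h (limma adjusted p = 4.56e-05, 4.47e-08 and 1.27e-05), and by 1.26 at 4 h in the peptide control (adjusted p = 0.0144). NPLOC4, an adaptor of the unfolding enzyme VCP, fell by 1.07, 1.93 and 1.28. UBQLN4, which carries substrates to the cap, fell by 1.06, 1.33 and 1.09. UBQLN2, of the same family, fell by 0.57 at 2 h and then rose by 0.39 at 4 h and 0.51 at 8 h.

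Of 11 tested genes of MHC class I presentation, 3 rose and 4 fell at 2 h under LR12, 2 rose and 2 fell at 4 h, and 0 rose and 1 fell at 8 h. The count at 4 h is that of all genes in share. TAP1, a subunit of the pump that moves proteasome products into the endoplasmic reticulum, rose by 0.70 at 2 h (limma adjusted p = 0.00414) and 0.64 at 4 h (adjusted p = 0.00668). TAPBP, which links that pump to MHC class I, rose by 0.49 and 0.36. ERAP2, a peptide-trimming enzyme, changed by -1.68, -1.75 and -1.34, and the chaperones CANX (-1.17) and CALR (-1.11) fell at 2 h.

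Of 13 tested genes of the interferon pathway, which induces PSMB8, PSMB9 and PSMB10, 5 rose and 0 fell at 2 h under LR12, 9 rose and 1 fell at 4 h, and 3 rose and 1 fell at 8 h. SOCS1, a feedback inhibitor, rose by 1.81 at 2 h and 2.28 at 4 h (limma adjusted p = 1.8e-06). JAK2, a kinase of the receptor, rose by 2.12 at 4 h and 1.42 at 8 h. IRF1, a transcription factor, rose by 1.43 at 2 h (adjusted p = 4.06e-07), and IFNGR2, a receptor subunit, by 1.76, 1.73 and 1.31. JAK1 fell by 0.76 at 4 h and 0.64 at 8 h. Rises made up 10.1%, 10.8% and 8.65% of all genes at these hours. The list's median change was 0.91 at 4 h, against -0.29 for all genes and -0.09 for the 4 immunoproteasome genes.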

How the data were processed

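The deposited table held linear array intensities of 54675 probe sets on 56 arrays, and per the submitters' processing notes MAS5 made them (no version named). The mean after trimming 2% at each end was 150.03 to 150.04 on the 56 arrays, a common scale, and array medians ran from 12.9 to 23.5. The log2 of each intensity was taken with no further normalization. Probe sets above their array's median on at least 4 arrays were kept, 38767 in all, and each gene was read by its brightest kept probe set with 1 symbol, from GEO's platform annotation. All 42 member symbols were found in a macaque gene table (T2T-MFA8v1.1). No sequence is printed.

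The test was that of limma 3.58.1 (R 4.3.3), in 1 model of 12 groups (3 arms at 4 hours) with a trended, robust prior, in 30 comparisons. Tests were two-sided. A simulation with independent noise changed 200 of 16020 genes for LR12 at 4 h. Of the genes changed by 1 on the log2 scale 35% were recovered, and of those changed by 2 65%, with 8 false calls. In the data 36.8% of all genes were called in that comparison, so these shares do not measure recovery there. Arrays of an animal correlated at 0.18 on average after removing group means (0.103 to 0.328 by animal) against -0.0294 between animals. The animal number, given in the labels, can thus serve as a pairing. The main fit did not use this pairing and treated the arrays of an animal as independent. A fit with the animal as a block (consensus correlation 0.221, statmod 1.5.0) was run beside the main one. The members, lists and tests were chosen with earlier results of these data known. All members could be named. Values in full are those of the 4 immunoproteasome genes, PSMB5, PSMB6 and PSMB7, and the 3 largest called rises and falls of the others at each hour of LR12. The number of arrays limits the precision.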

Additional observations from a re-analysis of the deposited data

Results flagged for a closer look

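In 216 sets of 1 gene in 1 arm and hour (18 genes in 12 groups), 14 held a sample far from the rest of its group. Chance alone marks about 5% of such sets, and the count is not far from that share. The 18 genes were read on the same arrays, so several flags on 1 array are not separate events. The samples of 2 control animals account for most of the 14.

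Y31305 stood apart in the peptide control at 8 h in PSMB10 (11.34, the others 10.03 to 10.25), PSMB8 (12.69, the others 11.67 to 11.81), PSME1 (12.04, the others 11.40 to 11.46) and PSMG3 (6.55, the others 7.17 to 7.29). It also stood apart at 4 h in PSMA2 (11.23, the others 11.78 to 11.79) and at 2 h in PSME4 (11.86, the others 12.54 to 12.62).

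Y31303 stood apart in the vehicle arm at 4 h in PSMC6 (11.17, the others 9.29 to 9.57), PSMB9 (12.24, the others 11.32 to 11.47) and PSMB6 (11.11, the others 10.49 to 10.55).

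In the LR12 arm Y31309 stood apart at 0 h in PSMB5 (9.46, the others 8.53 to 8.81) and PSMB8 (12.11, the others 12.44 to 12.59). Y31314 stood apart at 0 h in PSMF1 (8.55, the others 8.97 to 9.21). Y31310 stood apart at 2 h in PSME1 (12.73, the others 11.52 to 11.97), and Y31311 at 8 h in PSME3 (9.13, the others 9.46 to 9.64).

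The change from 0 h differed between LR12 and vehicle by limma in 3 genes. The difference was 0.71 for PSME4 at 2 h (adjusted p = 0.049), 1.23 for PSMA4 at 4 h (adjusted p = 0.0299) and 2.05 for PSMC6 at 4 h (adjusted p = 0.0286). None was called with arrays centred on the median (limma adjusted p of 0.0963, 0.0969 and 0.0865). Each call was also lost when any of several single animals was left out.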

How the results depend on the processing

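Of the 60 calls of proteasome genes in the 30 comparisons, all 60 held with an offset of 16 before the log, with the strict filter and with the animal as a block, 56 with the control level as a covariate, 53 without a filter, 47 with quantile normalization, 41 when only the groups compared were fitted, and 36 with arrays centred on the median. On the low-control arrays, chosen after seeing the data, 50 held and 7 did not, and on the high-control arrays, likewise, 0 held and 10 did not. With the mean of all probe sets of a gene 43 held, and PSMA3 at 2 h under LR12 turned to 0.01. Fewer samples enter the last 2 array sets, and the cause of the other losses was not tested.

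Calls of LR12 at 8 h numbered 5 centred, 4 without a filter and 4 on low-control arrays, and 4 to 5 without 1 animal. Peptide control calls at 2 h were 2 with quantile normalization, 2 with the block, 0 on the mean of probe sets, 0 with only the groups compared, and 0 to 1 without 1 animal. At 4 h they were 2, 7, 3 and 2 in that order, 0 on high-control arrays, and 0 to 5 without 1 animal, and at 8 h they were 1 with the block and 1 with the covariate.

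LR12 against the peptide control gave 1 call at 2 h centred, 1 on the mean of probe sets, 0 with only the groups compared and 0 to 3 without 1 animal. At 4 h it gave 0 under each of these and with quantile normalization and on high-control arrays, and 0 to 1 without 1 animal. The control level as a covariate also gave 1 call at 4 h, a fall and no longer PSMC2. LR12 against vehicle gave 3 at 2 h with only the groups compared. At 4 h it gave 3 centred, 3 with only the groups compared, 15 with the covariate, 14 on low-control arrays, 0 on high-control arrays and 4 to 18 without 1 animal. At 8 h it gave 1 with the covariate, 3 on low-control arrays and 0 to 4 without 1 animal. The peptide control against vehicle gave 0 to 2 at 2 h and 0 to 5 at 4 h without 1 animal.

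The difference in change between LR12 and vehicle gave at 2 h 2 calls with the block and 0 centred, with quantile normalization, without a filter, with only the groups compared and on low-control arrays, and 0 to 2 without 1 animal. At 4 h it gave 0 centred, 7 with the block, 1 with only the groups compared and 0 to 6 without 1 animal, and at 8 h 1 with the block, 1 on low-control arrays and 0 to 3 without 1 animal. The block lost no call, and the calls it added are those given beside each gene.

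Group medians relative to all genes moved with quantile normalization. The core came to 0.11 and 0.08 at 4 and 8 h in LR12 and to -0.05 and -0.01 in the peptide control, the cap to 0.12 at 4 h in LR12, and the immunoproteasome to -0.29, -0.17 and -0.50 in LR12 and to -0.04 and -0.14 at 2 and 4 h in the peptide control. On low-control arrays the immunoproteasome came to 0.09 and the assembly factors to -0.34 at 8 h with vehicle. Assembly factors in the peptide control at 2 h came to 0.22 with the covariate, 0.18 on the mean of probe sets, and -0.13 to 0.09 without 1 animal. The core in the peptide control at 8 h ran from 0.08 to 0.26 without 1 animal.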
